A study of Rattus norvegicus with 16 samples.

Results

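The genes described here encode the proteasome, the barrel-shaped protease that degrades ubiquitin-tagged proteins in every cell. They were chosen by their symbols in the array annotation: every gene whose symbol starts with Psma, Psmb, Psmc, Psmd, Psme, Psmf or Psmg followed by a digit and which had a probe naming that gene alone, with the probe of the highest mean over all arrays taken per gene. The rule used no measured difference. It matched 48 of the 18166 genes with such a probe. Of these, 43 encode subunits, activators, an inhibitor or assembly chaperones of the proteasome and are the genes counted below. The other 5 were set apart: 3 are annotated pseudogenes or copies (Psma6-ps1, Psmb3l2, Psmd1-ps1) and 2 are other proteins (Psmc3ip and Psme3ip1). Psma3 and Psme3 are named only by probes that list several genes, and are not described.

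The cells came from carotid bodies, the arterial oxygen sensors of the neck, of Wistar rats aged 9 to 11 weeks. Both carotid bodies were pooled and dispersed, and an antibody against HNK-1, a sugar epitope of neural cells, sorted HNK-1-positive cells, labelled neuroblasts, from HNK-1-negative cells, labelled glomus cells. Before that, the animals were kept in ambient air (normoxia) or spent 3 days in hypoxic chambers, whose oxygen level is not given in the sources used here. This gave 4 groups of 4 arrays: normoxic glomus cells, hypoxic glomus cells, normoxic neuroblasts and hypoxic neuroblasts. Each array was made from 500 pg of total RNA. The HNK-1-negative gate is defined by the lack of a marker and would hold any other cell without the epitope. Marker genes set against the labels gave 6 of 10 glomus cell genes lower and 6 of 10 neuroblast genes higher in the neuroblasts in normoxia, and 0 of 10 of either kind passed in hypoxia. Of all probes, 1.82% passed between the populations in normoxia and 0.283% in hypoxia. In hypoxia, 0 of 10 glomus cell genes and 9 of 10 neuroblast genes still had a difference above 0 in the neuroblasts (medians -0.605 and 0.3275).

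A proteasome is built from a core particle (20S) of stacked alpha and beta rings, whose beta subunits cut the chain, and a regulatory particle (19S), which recognises ubiquitin, removes it and threads the protein into the core. In immune cells, and in other cells after interferon gamma, the catalytic beta subunits are replaced by the immunoproteasome subunits Psmb8, Psmb9 and Psmb10, which favour peptides for display on MHC class I molecules. When proteasome capacity is short, the transcription factor Nfe2l1 raises the genes of core and regulatory particle together. The 43 genes were 6 alpha and 7 beta subunits of the constitutive core, the 3 immunoproteasome subunits, the thymus-specific Psmb11, 6 ATPases and 11 non-ATPase subunits of the regulatory particle, 4 activators or inhibitors and 5 assembly chaperones.

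Values are log2 probe values, so a difference of 1 is a 2-fold change, and each difference is given ± its standard error from limma. A gene passed a comparison at an adjusted p under 0.05, with the Benjamini-Hochberg method over all 30429 probes. The level of one probe is not comparable with that of another. The first hypoxic neuroblast array had the lowest value of its group for 35 of the 43 genes, and its mean correlation with the other arrays of its group was 0.914 against at least 0.949 for every other array. Array medians averaged 4.51 and 4.52 in the normoxic groups and 4.72 and 4.80 in the hypoxic groups, while the brighter 50% of probes had a median hypoxia difference of 0.02 in glomus cells and -0.02 in neuroblasts. Cells that are fewer and cells that each hold less of an RNA cannot be told apart in such bulk samples.

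Before the values, the stretches upstream of 3 genes are shown, because these genes carry the main directions described below: Psmb3 (a core subunit that rose), Psmb8 (an immunoproteasome subunit that rose) and Psmd2 (a regulatory particle subunit that fell). Each is the 250 bases before the annotated transcription start, 5′ to 3′ on the gene's strand, from RefSeq on the GRCr8 build: chr10:83193537-83193786 on the plus strand, chr20:4657032-4657281 on the minus strand and chr11:93763389-93763638 on the minus strand. Capitals mark every match, on either strand, to TGACNNNGC (the core of the antioxidant response element that Nfe2l1 and Nfe2l2 bind), ACGTG (the core of the hypoxia response element), CCAAT (the CCAAT box) and TTCNNNGAA (the interferon gamma activated site).
Psmb3: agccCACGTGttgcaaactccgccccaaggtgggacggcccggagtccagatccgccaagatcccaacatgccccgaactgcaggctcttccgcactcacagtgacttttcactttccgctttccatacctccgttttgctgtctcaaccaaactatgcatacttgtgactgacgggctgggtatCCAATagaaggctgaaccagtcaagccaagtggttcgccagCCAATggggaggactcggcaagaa
Psmb8: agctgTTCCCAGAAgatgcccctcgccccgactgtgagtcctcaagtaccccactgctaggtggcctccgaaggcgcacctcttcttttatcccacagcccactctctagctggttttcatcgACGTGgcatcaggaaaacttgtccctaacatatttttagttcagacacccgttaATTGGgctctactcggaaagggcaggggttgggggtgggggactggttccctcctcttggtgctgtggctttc
Psmd2: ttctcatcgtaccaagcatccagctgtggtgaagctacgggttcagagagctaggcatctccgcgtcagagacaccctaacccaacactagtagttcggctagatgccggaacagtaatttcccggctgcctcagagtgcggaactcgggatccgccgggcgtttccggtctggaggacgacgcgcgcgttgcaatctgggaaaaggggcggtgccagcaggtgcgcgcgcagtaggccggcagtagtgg

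The Psmb3 stretch held 2 matches to ACGTG, which are the same CACGTG read on both strands, and 2 to CCAAT. The Psmb8 stretch held 1 match to ACGTG, 1 to CCAAT and 1 to TTCNNNGAA. The Psmd2 stretch held no match to any of the 4 sets of letters. Over the promoter table (windows of 300 bases, 250 before and 50 after the start), 38 of the 43 genes had an entry. TGACNNNGC was found in 7 of these 38 (18.4%), among them Psmb2, Psmb5 and Psmb6 of the core and Psmd1 and Psmd3 of the regulatory particle, against 12.1% of all 33469 promoters. ACGTG was found in 23.7% of the 38 against 19.3% of all, and TTCNNNGAA in 10.5% (Psmb8, Psmc6, Psmd3 and Psmd7) against 8.87%. CCAAT stood in 44.7% of the 38 and 37.5% of all, and in 8 of the 12 core genes with an entry (66.7%). A match describes letters in a window and no more.

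In hypoxia, core, immunoproteasome and chaperone genes were higher or did not pass in both populations. The 17 genes of the regulatory particle went both ways. In each population 4 of them were lower, while 2 in glomus cells and 3 in neuroblasts were higher. That is 11.8% higher and 23.5% lower in glomus cells, and 17.6% and 23.5% in neuroblasts. These shares are near those of the brighter 50% of probes, given below. In glomus cells 16 of the 43 genes rose, 4 fell and 23 did not pass, where 18.9% of all probes passed in either direction, 9.37% higher and 9.5% lower. The median difference of the 43 was 0.50, against 0.17 for all probes. In neuroblasts 16 rose, 5 fell and 22 did not pass, where 32.1% of all probes passed, 18.4% higher and 13.7% lower. Their median was 0.49, against 0.25 for all probes. The falls were 9.3% of the 43 genes in glomus cells and 11.6% in neuroblasts, near or below the shares of all probes. Of the brighter 50% of probes, 13.4% were higher and 18.5% lower in glomus cells, and 19.1% and 26.4% in neuroblasts. The comparisons use separate arrays but share a variance per probe from the fit to all 16 arrays. Whether both populations of an oxygen condition came from the same animals is not stated. Of the 16 genes that rose in each population, 12 (75.0% of each list) rose in both: Psma2, Psma4, Psmb3, Psmb6, Psmb8, Psmb9, Psmb10, Psmd14, Psme1, Psme2, Psmg1 and Psmg4. The 4 that fell in glomus cells, Psmd2, Psmd3, Psmd11 and Psmd13, were also 4 of the 5 that fell in neuroblasts (80.0%). Over all probes, those higher in both populations were 71.1% of the glomus and 36.2% of the neuroblast list, and those lower in both were 84.0% and 58.4%, so calls shared by the populations were common among all probes too.

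Markers of the sorted cells moved in the same comparisons. In neuroblasts 8 of 10 neuroblast markers fell in hypoxia and 0 rose, and their mean ran from 7.49 to 8.08 in normoxic and 6.55 to 6.99 in hypoxic arrays. Of 10 glomus cell markers there, 3 rose and 4 fell, with means from 9.57 to 10.14 in normoxia and 9.07 to 10.07 in hypoxia. Of 3 measured erythroid markers, 2 rose in neuroblasts, where the mean ran from 3.59 to 3.82 in normoxia and 3.87 to 5.37 in hypoxia, and 0 passed in glomus cells. The hypoxic neuroblast means were 5.37, 4.60, 4.98 and 3.87 on replicates 1 to 4, and the normoxic ones lie below their array medians. With each array centred on its median, 1 of the 3 was higher in neuroblasts. Of all probes there, 18.4% were higher and 13.7% lower in the main fit. In glomus cells 1 of the 10 glomus cell markers rose and 4 fell, and their mean ran from 10.78 to 11.03 in normoxia and 10.30 to 10.45 in hypoxia. The part of these shifts in the proteasome differences was not tested.

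How many passed depends on the scaling of the arrays. With each array centred on its median the glomus counts were 5 higher and 4 lower, and the neuroblast counts 9 higher and 5 lower; with quantile normalization they were 19 and 3, and 20 and 4. The genes higher after median centring were Psmb3, Psmb10, Psmd14, Psmg1 and Psmg4 in glomus cells, and Psma2, Psma4, Psmb3, Psmb8, Psmb9, Psmb10, Psmd14, Psme1 and Psmg4 in neuroblasts. Below, a call that held under every alternative is one that kept an adjusted p under 0.05 through 26 other settings of the processing (25 for Psmb8 and Psmb11, whose probes are not among the brighter 50%); stricter thresholds are not counted among these. Without normoxic glomus replicate 4 the count of glomus rises was 10. Without hypoxic neuroblast replicate 1, 24 genes rose and 4 fell in neuroblasts (26.5% of all probes passed then).

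**Figure D1:**
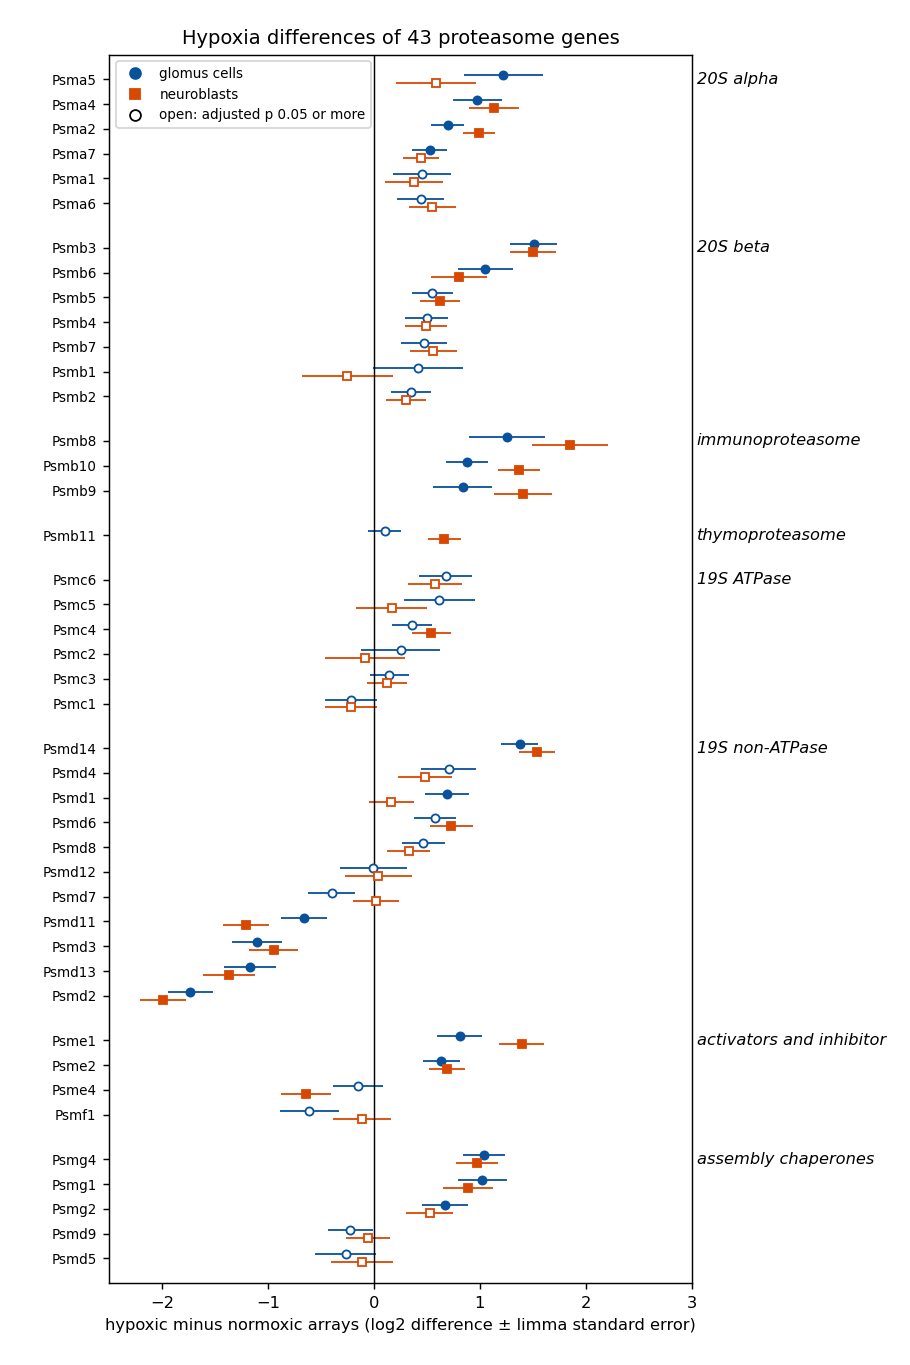
Hypoxic minus normoxic difference (log2, horizontal axis, ± limma standard error) of the 43 genes, ordered by role, in glomus cells (circles) and neuroblasts (squares); filled symbols passed at an adjusted p under 0.05. The core and immunoproteasome genes lie to the right of 0 except Psmb1 in neuroblasts (-0.25), and the non-ATPase subunits spread from Psmd2 (-1.73 and -1.99) to Psmd14 (1.38 and 1.54).

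The constitutive core leaned upwards as a block in glomus cells. All 13 alpha and beta genes had a difference above 0 (0.35 to 1.51, median 0.53), as had 67.4% of all probes, and 6 passed: Psma2, Psma4, Psma5, Psma7, Psmb3 and Psmb6. For 12 of the 13 every hypoxic glomus array lay above every normoxic one, which was so for 15.2% of all probes; Psmb1 was the exception. In neuroblasts 12 of 13 differences were above 0 (median 0.56), as were 68.3% of all probes, and 5 genes passed: Psma2, Psma4, Psmb3, Psmb5 and Psmb6. There all hypoxic arrays lay above all normoxic ones for 3 of the 13, against 16.3% of all probes. Without hypoxic neuroblast replicate 1, 11 of the 13 passed, and without normoxic neuroblast replicate 1, or hypoxic neuroblast replicates 3 or 4, only 3 did. On arrays centred on their medians, 1 of the 13 passed in glomus cells.

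Among the alpha subunits, which form the outer rings and the gate of the core, Psma2 read 9.33, 9.50, 9.40 and 9.48 in normoxic and 10.02, 10.44, 9.92 and 10.11 in hypoxic glomus cells. It read 9.14, 9.52, 9.50 and 9.27 in normoxic and 10.45, 10.21, 10.32 and 10.41 in hypoxic neuroblasts. In both populations all 4 hypoxic arrays were above all 4 normoxic ones, and the differences were 0.70 ± 0.15 (1.62-fold, adjusted p = 0.00377) and 0.99 ± 0.15 (1.99-fold, adjusted p = 0.000122). Psma4 read 7.89, 8.52, 8.19 and 8.26 in normoxic and 9.08, 9.21, 9.34 and 9.14 in hypoxic glomus cells. In neuroblasts the Psma4 values were 7.63, 8.26, 8.33 and 8.36 in normoxia and 8.56, 9.35, 9.40 and 9.80 in hypoxia. The Psma4 groups did not overlap in either population, with rises of 0.98 ± 0.23 (adjusted p = 0.00688) and 1.13 ± 0.23 (adjusted p = 0.00159).

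For Psma5 the glomus values were 8.56, 8.96, 8.69 and 8.47 in normoxia and 9.89, 10.09, 9.88 and 9.71 in hypoxia, a rise of 1.22 ± 0.38 (2.33-fold, adjusted p = 0.0297). In neuroblasts Psma5 read 8.33, 8.98, 9.19 and 8.71 in normoxia and 7.73, 9.74, 10.08 and 10.01 in hypoxia, a difference of 0.59 ± 0.38 that did not pass (adjusted p = 0.224). A single array set that difference: 3 hypoxic neuroblast arrays lay above all normoxic ones and the first lay below them, and without it the rise was 1.14 with an adjusted p of 0.000436. The glomus call of Psma5 was itself lost when normoxic glomus replicate 1, 3 or 4 or hypoxic glomus replicate 1, 2 or 3 was left out (adjusted p from 0.0554 to 0.079). Psma7 rose in glomus cells by 0.53 ± 0.17 (adjusted p = 0.038), a call lost when any 1 glomus array other than hypoxic replicate 4 was left out (adjusted p from 0.0502 to 0.106) and under median centring or quantile normalization. Psma1 and Psma6 did not pass in either population, with differences of 0.45 and 0.44 in glomus cells and 0.38 and 0.55 in neuroblasts. Without hypoxic neuroblast replicate 1, Psma1, Psma6 and Psma7 passed in neuroblasts.

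Psmb3, a non-catalytic subunit of the beta ring, had the highest rise of the core genes in both populations. It read 6.03, 6.41, 6.24 and 6.22 in normoxic and 7.96, 7.67, 7.77 and 7.53 in hypoxic glomus cells. In neuroblasts it read 5.71, 5.89, 6.28 and 6.19 in normoxia and 7.08, 7.10, 8.03 and 7.88 in hypoxia. No hypoxic value overlapped a normoxic one, and the rises were 1.51 ± 0.22 (2.84-fold, adjusted p = 0.000145) and 1.51 ± 0.22 (2.84-fold, adjusted p = 6.88e-05). Psmb3 passed under every alternative, in both populations. Its annotated copy Psmb3l2 rose in neuroblasts (0.70 ± 0.24, adjusted p = 0.0333) and gave 0.30 ± 0.24 in glomus cells (adjusted p = 0.402). The normoxic neuroblast values of Psmb3l2, 3.14 to 3.55, lie below the array medians. Its neuroblast call was lost under median centring (limma adjusted p = 0.227) and quantile normalization (0.314). Whether the probes of gene and copy capture each other's RNA was not tested.

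The catalytic subunits of the constitutive core are Psmb5, Psmb6 and Psmb7, which cut after hydrophobic, acidic and basic residues. Psmb5 read 9.71, 9.97, 9.46 and 9.67 in normoxic and 10.38, 10.37, 10.06 and 10.21 in hypoxic glomus cells, and the groups did not overlap, yet its difference of 0.55 ± 0.19 missed the threshold (adjusted p = 0.052). In neuroblasts Psmb5 read 9.40, 9.70, 9.56 and 9.51 in normoxia and 9.61, 10.09, 10.44 and 10.52 in hypoxia, a rise of 0.62 ± 0.19 (adjusted p = 0.0205) with 1 hypoxic array inside the normoxic range. This call was lost without normoxic neuroblast replicate 1 or hypoxic neuroblast replicates 3 or 4 (adjusted p from 0.0503 to 0.0596). Psmb6 read 9.30, 9.66, 9.09 and 9.31 in normoxic and 10.32, 10.30, 10.45 and 10.50 in hypoxic glomus cells, without overlap, a rise of 1.05 ± 0.26 (2.07-fold, adjusted p = 0.00846). The neuroblast values of Psmb6 were 8.92, 9.20, 9.40 and 9.08 in normoxia and 8.88, 10.26, 10.35 and 10.32 in hypoxia. There the rise was 0.80 ± 0.26 (adjusted p = 0.0274), with the first hypoxic array below all normoxic ones. That call was lost without normoxic neuroblast replicates 1 or 4 or hypoxic neuroblast replicates 2, 3 or 4 (adjusted p from 0.0602 to 0.0769). A second, dimmer Psmb6 probe gave 0.88 ± 0.40 (adjusted p = 0.14) and 0.48 ± 0.40 (adjusted p = 0.344).

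Psmb7 read 9.57, 9.91, 9.60 and 9.41 in normoxic and 10.15, 10.10, 10.19 and 9.95 in hypoxic glomus cells. In neuroblasts its values were 9.15, 9.65, 9.43 and 9.84 in normoxia and 9.43, 9.97, 10.51 and 10.41 in hypoxia. The glomus groups did not overlap and the neuroblast groups did, and neither difference passed (0.47 ± 0.22, adjusted p = 0.146, and 0.56 ± 0.22, adjusted p = 0.0577). Psmb4 had similar differences of 0.50 and 0.49, and Psmb2 0.35 and 0.30, none of which passed. Psmb1 had 0.42 ± 0.43 in glomus cells and -0.25 ± 0.43 in neuroblasts, where the first hypoxic array read 7.53 against 10.11 to 10.25 in the other 3; without it the neuroblast difference was 0.42 (adjusted p = 0.0872).

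All 3 immunoproteasome genes rose in both populations, with a median of 0.88 in glomus cells and 1.41 in neuroblasts. Psmb8, the inducible counterpart of Psmb5, read 4.37, 4.03, 4.34 and 4.36 in normoxic and 4.88, 5.79, 5.69 and 5.78 in hypoxic glomus cells, a rise of 1.26 ± 0.36 (2.40-fold, adjusted p = 0.0196). It read 2.97, 3.16, 3.16 and 2.81 in normoxic and 3.87, 4.14, 5.99 and 5.50 in hypoxic neuroblasts, a rise of 1.85 ± 0.36 (3.60-fold, adjusted p = 0.000907). The normoxic Psmb8 values lie below the medians of their arrays (4.42 to 4.64 in glomus cells, 4.40 to 4.61 in neuroblasts). How far they lie above background is unknown, so both fold changes are uncertain. The hypoxic and normoxic groups did not overlap in either population. Within hypoxic neuroblasts the spread was wide: the first and second arrays were near 4 and the other two at 5.50 or above (SD 1.03). Within hypoxic glomus cells the first array, at 4.88, was the low one.

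Psmb9, the counterpart of Psmb6, read 5.85, 5.60, 5.82 and 5.64 in normoxic and 6.55, 6.61, 6.78 and 6.32 in hypoxic glomus cells, a rise of 0.84 ± 0.28 (1.79-fold, adjusted p = 0.0417). In neuroblasts it read 5.09, 5.82, 5.15 and 4.68 in normoxia and 5.62, 6.80, 7.05 and 6.91 in hypoxia, a rise of 1.41 ± 0.28 (2.66-fold, adjusted p = 0.000979). The glomus groups did not overlap; in neuroblasts the first hypoxic array lay inside the normoxic range. Psmb10, the counterpart of Psmb7, read 6.08, 5.83, 5.36 and 5.73 in normoxic and 6.82, 6.88, 6.40 and 6.40 in hypoxic glomus cells. Its neuroblast values were 5.57, 5.22, 5.38 and 5.36 in normoxia and 6.68, 6.32, 6.94 and 7.08 in hypoxia. Neither pair of Psmb10 groups overlapped, and the rises were 0.88 ± 0.20 (1.83-fold, adjusted p = 0.00479) and 1.37 ± 0.20 (2.59-fold, adjusted p = 6.99e-05).

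The neuroblast calls of all 3 and the glomus call of Psmb10 held under every alternative. The glomus call of Psmb8 was lost without normoxic glomus replicate 2 or hypoxic glomus replicates 2 or 4 and under median centring and quantile normalization, and that of Psmb9 without any 1 of the 8 glomus arrays and under median centring. The whole set therefore counted 1 of 3 in glomus cells without normoxic glomus replicate 2 or hypoxic glomus replicates 2 or 4.

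**Figure D2:**
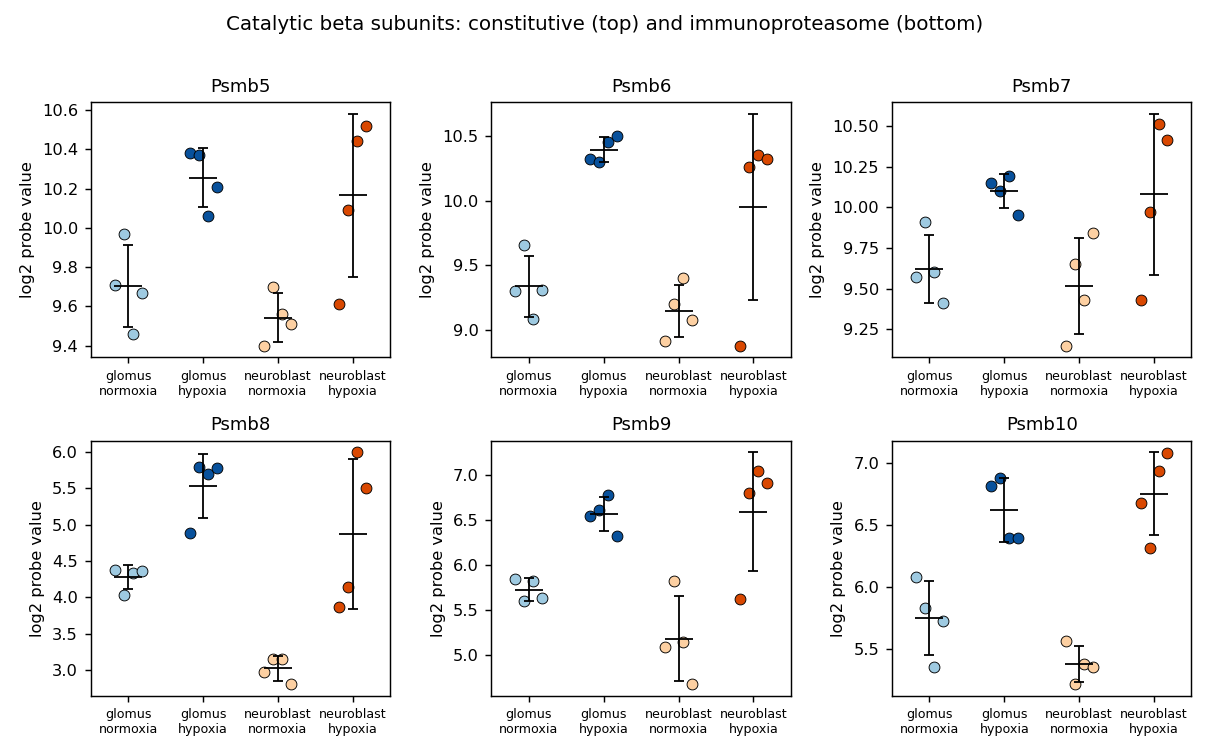
Log2 probe value (vertical axis, a separate range per panel) on each of the 16 arrays for the constitutive catalytic subunits (top row) and their immunoproteasome counterparts (bottom row); bars are group mean ± SD (n = 4). Hypoxic arrays lie above normoxic ones in glomus cells for all 6 genes, and hypoxic neuroblast replicate 1 (the leftmost point of its group) is low for Psmb5, Psmb6, Psmb7, Psmb8 and Psmb9.

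Cells that carry the immunoproteasome at rest include macrophages and lymphocytes, so their markers are given beside these rises. The mean of 15 macrophage marker probes ran from 4.86 to 6.59 in normoxic and 5.90 to 6.58 in hypoxic glomus arrays, and from 4.06 to 4.62 in normoxic and 4.52 to 5.06 in hypoxic neuroblast arrays. Of these markers 5 of 15 rose in glomus cells (median difference 0.74) and 0 of 15 passed in neuroblasts, where 14 of 15 differences were above 0 (median 0.52). Of all probes, 9.37% were higher in glomus cells and 18.4% in neuroblasts, where 68.3% of differences were above 0 (median 0.25). Under median centring the macrophage marker median was 0.53 in glomus cells, with 4 higher, and 0.24 in neuroblasts. Of 12 T and NK cell markers, 1 rose in glomus cells and 3 in neuroblasts, and their mean ran from 3.65 to 4.19 in normoxic and 3.94 to 4.18 in hypoxic glomus arrays, and from 3.49 to 3.59 in normoxic and 3.91 to 4.24 in hypoxic neuroblast arrays. These T and NK means lie below the array medians, and under median centring 1 marker rose in each population. The part of both marker lists in the immunoproteasome rises was not tested.

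Psmb8 and Psmb9 lie in the MHC region on chromosome 20, interleaved with the peptide transporter genes in the annotated order Tap2, Psmb8, Tap1, Psmb9. The transporters did not pass. Tap1 read 6.04, 5.64, 6.02 and 5.98 in normoxic and 5.53, 5.54, 5.92 and 5.65 in hypoxic glomus cells and 5.74, 5.28, 5.76 and 5.74 in normoxic and 5.07, 5.37, 5.50 and 6.14 in hypoxic neuroblasts, with overlap in both and differences of -0.26 ± 0.21 (adjusted p = 0.407) and -0.11 ± 0.21 (adjusted p = 0.685). Tap2 differed by -0.17 and -0.30. Of 19 measured genes of antigen presentation and interferon response, 4 rose and 4 fell in glomus cells, and 4 rose and 5 fell in neuroblasts. B2m, the light chain of MHC class I, rose by 1.11 ± 0.20 (adjusted p = 0.000922) and 2.42 ± 0.20 (adjusted p = 5.89e-07), from 8.0, 8.44, 8.68 and 7.77 to 10.29, 10.65, 10.85 and 10.80 in neuroblasts. The chaperones that fold class I molecules fell: Calr fell by 1.85 in glomus cells and fell by 1.61 in neuroblasts, with Canx and Pdia3 also lower in both. Irf1, the interferon-induced transcription factor, differed by 0.03 in glomus cells (adjusted p = 0.934) and fell by 0.56 in neuroblasts (adjusted p = 0.0284). Some other genes of the list read higher in hypoxic neuroblasts. There Irf8 read 4.35 to 4.61 in normoxia and 4.75 to 5.27 in hypoxia, near the array medians (4.40 to 4.61 and 4.71 to 4.94). Nlrc5 read 3.88 to 4.45 and 4.30 to 5.12, and RT1-Db1 5.27 to 5.75 and 6.04 to 6.49. Of the 19 differences, 9 were above 0 in neuroblasts (47.4%), as were 68.3% of all probes. Under median centring 1 of the 19 genes was higher and 5 were lower there. Interferon signalling was not tested.

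Psmb11, which replaces Psmb5 in the thymus cortex, rose in neuroblasts by 0.66 ± 0.16 (adjusted p = 0.00415), from 4.11 to 4.41 in normoxia to 4.73 to 5.06 in hypoxia, and gave 0.10 ± 0.16 in glomus cells (adjusted p = 0.686). These values lie near the array medians. The neuroblast call was lost under median centring and quantile normalization, and the glomus difference turned to -0.12 under each of them.

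The 6 ATPases of the regulatory particle unfold the substrate. Above 0 were 5 of their 6 differences in glomus cells (median 0.31) and 4 of 6 in neuroblasts (median 0.15). Without hypoxic neuroblast replicate 1, all 6 were above 0 in neuroblasts (median 0.48) and 1 passed. With quantile normalization 1 passed in glomus cells and 2 in neuroblasts. In the main fit 0 of the 6 passed in glomus cells. The largest differences there were Psmc6 with 0.68 ± 0.25 (adjusted p = 0.0714), Psmc5 with 0.62 ± 0.34 (adjusted p = 0.218) and Psmc4 with 0.36 ± 0.18 (adjusted p = 0.193). Psmc6 read 6.77, 7.35, 7.26 and 7.26 in normoxic and 8.16, 7.88, 7.25 and 8.06 in hypoxic glomus cells, and 7.07, 6.83, 7.61 and 7.34 in normoxic and 7.59, 7.24, 8.28 and 8.05 in hypoxic neuroblasts, with overlap in both. In neuroblasts 1 of the 6, Psmc4, rose, by 0.54 ± 0.18 (adjusted p = 0.034), from 8.30, 8.30, 8.94 and 8.79 to 9.27, 8.98, 8.99 and 9.26. Its glomus values were 8.67, 8.88, 8.85 and 8.90 in normoxia and 9.04, 8.86, 9.37 and 9.47 in hypoxia, which overlap. The neuroblast call of Psmc4 was lost without normoxic neuroblast replicates 1 or 2 or hypoxic neuroblast replicates 1 or 4 (adjusted p from 0.0649 to 0.0951). Psmc5 read 8.72, 8.79, 8.85 and 8.66 in normoxic and 9.20, 9.56, 9.61 and 9.12 in hypoxic glomus cells without overlap, and 7.88, 8.40, 8.72 and 8.56 in normoxic and 7.14, 8.79, 9.08 and 9.23 in hypoxic neuroblasts, where the first hypoxic array lay below all others. Psmc1, Psmc2 and Psmc3 had differences from -0.22 to 0.25 in both populations.

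The 11 non-ATPase subunits moved in opposite directions, 2 higher (18.2%) and 4 lower (36.4%) in each population. Of the brighter 50% of probes, 13.4% were higher and 18.5% lower in glomus cells, and 19.1% and 26.4% in neuroblasts. The count of higher genes depended on the processing. In glomus cells it was 5 (with 3 lower) under quantile normalization or centring on the brighter 50% of probes, 5 (with 4 lower) with array weights, and 1 (with 4 lower) under median centring. It was 1 without normoxic glomus replicates 1 or 4 or hypoxic glomus replicates 1 or 2, and 4 without hypoxic neuroblast replicate 1, which enters this comparison through the shared variance. In neuroblasts it was 4 (with 4 lower) under quantile normalization or centring on the brighter probes, and 1 (with 4 lower) under median centring. Psmd2, the large scaffold subunit to which ubiquitin receptors and shuttle factors dock, had the deepest fall of the 43 genes. It read 9.68, 9.65, 10.03 and 9.92 in normoxic and 8.03, 8.12, 8.42 and 7.78 in hypoxic glomus cells. In neuroblasts it read 9.16, 9.50, 9.93 and 10.06 in normoxia and 7.25, 7.85, 7.94 and 7.65 in hypoxia. Every hypoxic array was below every normoxic one, by more than 1 log2 unit at the closest, and Psmd2 fell by 1.73 ± 0.22 in glomus cells (3.32-fold lower, adjusted p = 4.8e-05) and fell by 1.99 ± 0.22 in neuroblasts (3.97-fold lower, adjusted p = 5.15e-06).

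The other 3 subunits that fell belong to the lid, the part of the regulatory particle that surrounds the deubiquitinase. Psmd13 read 8.30, 8.47, 8.59 and 8.50 in normoxic and 7.65, 7.04, 7.57 and 6.92 in hypoxic glomus cells. It read 8.46, 8.89, 8.87 and 8.56 in normoxic and 6.48, 7.67, 7.39 and 7.77 in hypoxic neuroblasts. The Psmd13 groups did not overlap, and it fell by 1.17 ± 0.25 (2.25-fold lower, adjusted p = 0.00296) in glomus cells and fell by 1.37 ± 0.25 (2.58-fold lower, adjusted p = 0.000529) in neuroblasts. Psmd3 fell by 1.10 ± 0.24 in glomus cells (8.03 to 8.19 in normoxia, 6.55 to 7.52 in hypoxia, adjusted p = 0.00302) and fell by 0.95 ± 0.24 in neuroblasts (7.39 to 8.35 in normoxia, 6.50 to 7.28 in hypoxia, adjusted p = 0.00587). Psmd11 fell by 1.21 ± 0.22 in neuroblasts (6.88 to 7.30 in normoxia, 5.10 to 6.25 in hypoxia, adjusted p = 0.000574) and fell by 0.66 ± 0.22 in glomus cells (6.96 to 7.24 in normoxia, 6.07 to 6.72 in hypoxia, adjusted p = 0.0455). The groups of Psmd3 and Psmd11 did not overlap either, as was so downwards for 11.3% of all probes in glomus cells and 11.6% in neuroblasts. The falls of Psmd2, Psmd3 and Psmd13 held under every alternative in both populations; the glomus call of Psmd11 was lost under 14 of 26, 11 of which leave out 1 array (adjusted p from 0.0516 to 0.137 over those 11).

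Psmd14, the metalloprotease that cuts the ubiquitin chain from the substrate, went the other way. It read 7.81, 8.08, 7.61 and 7.40 in normoxic and 9.21, 9.14, 9.09 and 8.96 in hypoxic glomus cells. In neuroblasts it read 7.69, 7.25, 7.59 and 7.61 in normoxia and 9.05, 8.84, 9.04 and 9.37 in hypoxia. The groups were apart in both populations, and Psmd14 rose by 1.38 ± 0.17 (2.59-fold, adjusted p = 5.13e-05) and 1.54 ± 0.17 (2.91-fold, adjusted p = 7.21e-06), calls that held under every alternative. Its dimer partner Psmd7 differed by -0.40 ± 0.22 in glomus cells and 0.02 ± 0.22 in neuroblasts, and neither passed. The ubiquitin receptor Psmd4 had 0.71 ± 0.26 (adjusted p = 0.0653) and 0.48 ± 0.26 (adjusted p = 0.147). Psmd1, the second large scaffold subunit, rose in glomus cells (0.69 ± 0.21, adjusted p = 0.0277) and gave 0.16 ± 0.21 in neuroblasts, and its pseudogene Psmd1-ps1 rose in both (1.06 ± 0.20 and 0.55 ± 0.20). The neuroblast call of Psmd1-ps1 was lost under median centring (limma adjusted p = 0.457) and quantile normalization (0.186). Psmd6 rose in neuroblasts (0.73 ± 0.20, adjusted p = 0.0104) and missed the threshold in glomus cells (0.57 ± 0.20, adjusted p = 0.0519). Psmd8 and Psmd12 did not pass in either. The glomus call of Psmd1 was lost without normoxic glomus replicates 1 or 4 or hypoxic glomus replicates 1, 2 or 3 (adjusted p from 0.0557 to 0.0751).

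**Figure D3:**
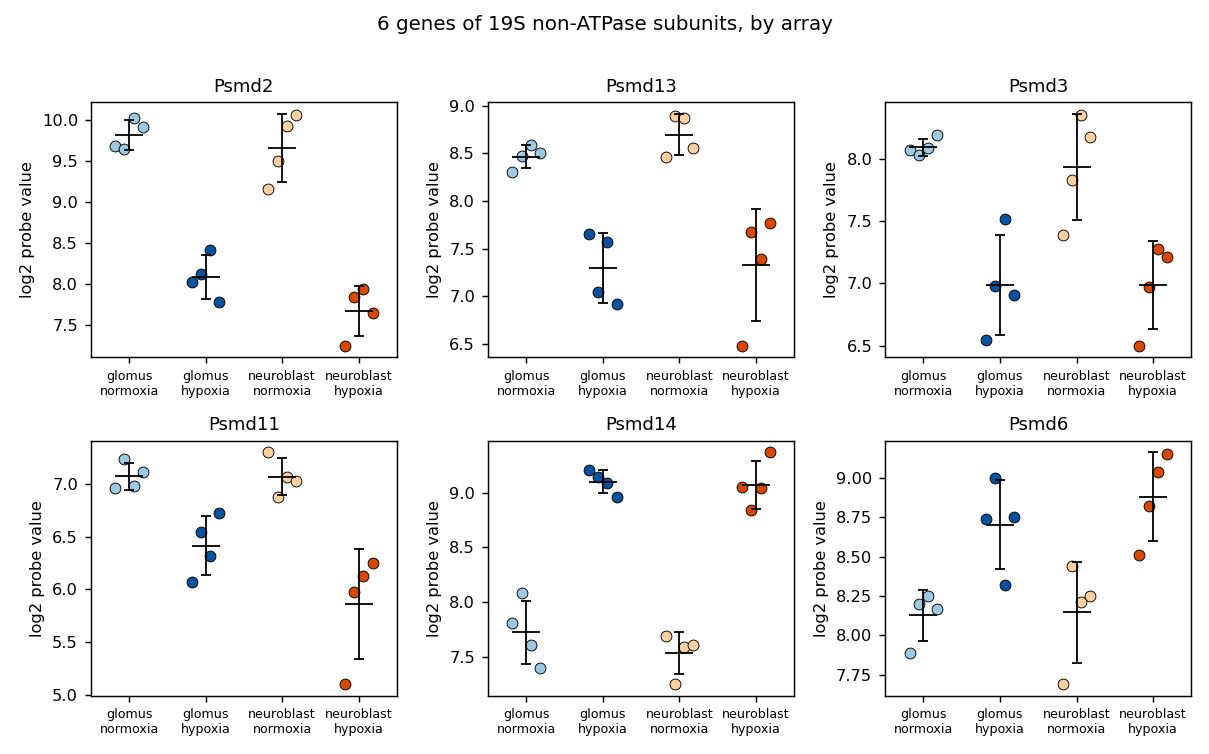
Log2 probe value (vertical axis, a separate range per panel) on each of the 16 arrays for 6 non-ATPase genes of the regulatory particle; bars are group mean ± SD (n = 4). Psmd2, Psmd13, Psmd3 and Psmd11 are lower on every hypoxic array of both populations and Psmd14 and Psmd6 are higher, although Psmd6 did not pass in glomus cells (adjusted p = 0.0519).

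Averaged within each array, the 13 core probes and the 17 probes of the regulatory particle parted in hypoxia. The mean core value ran from 9.42 to 9.70 in normoxic and 10.15 to 10.25 in hypoxic glomus arrays, while the mean of the regulatory particle ran from 8.08 to 8.29 and from 8.18 to 8.30. In neuroblasts the core ran from 9.10 to 9.56 in normoxia and 9.24 to 10.40 in hypoxia, and the regulatory particle from 7.78 to 8.37 and from 7.43 to 8.32. The difference between both means does not change when an array is shifted as a whole, and only its change between arrays can be read. It lay between 1.17 and 1.46 on the 8 normoxic arrays and between 1.81 and 2.08 on the 8 hypoxic arrays. Hypoxic neuroblast replicate 1, low in both means, was at 1.81 in this difference. It is given as a description with no test, and the 4 falls and the rise of Psmd14 above are part of it. The regulatory particle did not move as a block. Its ATPase mean averaged 8.45 on normoxic and 8.75 on hypoxic glomus arrays, and 8.24 and 8.42 on neuroblast arrays. The non-ATPase mean, which holds the 4 falls, averaged 8.10 and 7.99, and 8.01 and 7.81. Across the 16 arrays the pairwise correlation among 39 of the genes (those other than the immunoproteasome and Psmb11) had a median of 0.45, and 0.49 for deviations from group means, over 741 pairs that share array scale.

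**Figure D4:**
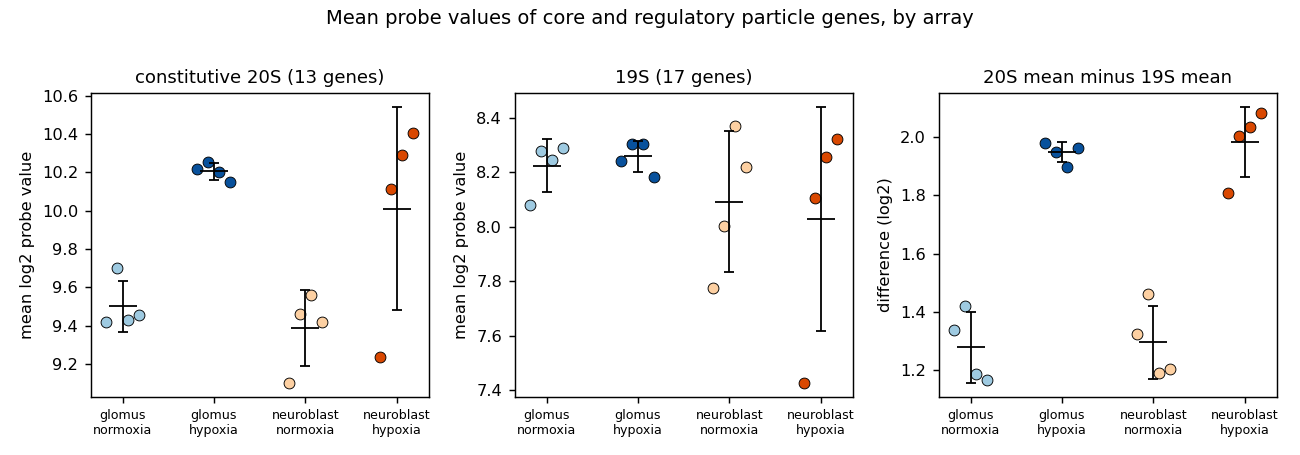
Mean log2 probe value per array of the 13 constitutive core genes (left), the 17 genes of the regulatory particle (middle) and their difference (right), with group mean ± SD (n = 4). The difference runs from 1.17 to 1.46 on normoxic and from 1.81 to 2.08 on hypoxic arrays, in both populations.

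Of the activators, Psme1 and Psme2 form the ring that caps the core in place of the regulatory particle and is induced by interferon gamma, and both rose in both populations. Psme1 read 5.86, 5.82, 5.44 and 5.96 in normoxic and 6.51, 6.88, 6.23 and 6.70 in hypoxic glomus cells. Its neuroblast values were 5.16, 5.21, 5.78 and 5.07 in normoxia and 7.16, 6.70, 6.37 and 6.57 in hypoxia, with no overlap in either population. The rises were 0.81 ± 0.21 (adjusted p = 0.0115) and 1.40 ± 0.21 (2.63-fold, adjusted p = 0.000102). Psme2 read 10.24, 10.40, 10.16 and 9.88 in normoxic and 10.90, 10.80, 10.87 and 10.66 in hypoxic glomus cells. In neuroblasts it read 9.90, 10.12, 9.94 and 9.91 in normoxia and 10.32, 10.46, 11.04 and 10.81 in hypoxia. The Psme2 groups did not overlap, and its rises were 0.64 ± 0.17 (adjusted p = 0.0148) and 0.69 ± 0.17 (adjusted p = 0.00618). Both genes lie on chromosome 15 with Emc9 between them. The glomus call of Psme2 was lost without normoxic glomus replicate 4 (adjusted p = 0.0618). Under median centring Psme2 was lost in both populations (limma adjusted p = 0.139 and 0.125), and Psme1 in glomus cells (0.0619). The neuroblast call of Psme1 held under every alternative.

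Psme4, a nuclear activator, read 8.03, 7.74, 7.79 and 7.61 in normoxic and 6.25, 7.54, 7.42 and 7.39 in hypoxic neuroblasts, a fall that passed narrowly (it fell by 0.64 ± 0.24, adjusted p = 0.0464). Without the first hypoxic array, which was the lowest, it did not pass (-0.34, adjusted p = 0.132), and the call was lost under 17 of 26 alternatives. In glomus cells Psme4 read 7.14, 7.41, 7.21 and 7.06 in normoxia and 6.93, 7.31, 6.78 and 7.20 in hypoxia (-0.15 ± 0.24, adjusted p = 0.688). Psmf1, a protein first described as an inhibitor of the core, read 7.12, 7.41, 7.75 and 7.79 in normoxic and 6.97, 6.62, 7.23 and 6.81 in hypoxic glomus cells, which overlap, and 6.38, 7.03, 7.17 and 7.25 in normoxic and 7.50, 6.51, 7.22 and 6.15 in hypoxic neuroblasts. Neither Psmf1 difference passed (-0.61 ± 0.28, adjusted p = 0.139, and -0.11 ± 0.28, adjusted p = 0.759).

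Of the 5 assembly chaperones, 3 rose in glomus cells and 2 in neuroblasts, and 0 fell. Psmg4, which helps to build the alpha ring, read 7.68, 7.93, 7.73 and 8.05 in normoxic and 9.14, 8.87, 8.51 and 9.03 in hypoxic glomus cells, and 7.62, 8.10, 8.07 and 7.65 in normoxic and 8.53, 8.59, 9.24 and 8.97 in hypoxic neuroblasts. It rose by 1.04 ± 0.20 (adjusted p = 0.00133) and 0.97 ± 0.20 (adjusted p = 0.00137), without overlap, under every alternative. Psmg1 and Psmg2 are the paired chaperones of the same ring. Psmg1 read 7.89, 8.09, 8.15 and 7.92 in normoxic and 9.08, 9.08, 9.23 and 8.76 in hypoxic glomus cells, and 7.77, 8.27, 8.37 and 8.14 in normoxic and 8.28, 8.89, 9.67 and 9.26 in hypoxic neuroblasts; it rose by 1.02 ± 0.24 (adjusted p = 0.00517) and 0.89 ± 0.24 (adjusted p = 0.00908). Psmg2 read 5.81, 6.18, 6.25 and 6.12 in normoxic and 6.84, 6.57, 7.08 and 6.56 in hypoxic glomus cells, and 6.07, 6.29, 6.30 and 6.35 in normoxic and 6.10, 6.68, 7.03 and 7.30 in hypoxic neuroblasts. Psmg2 rose in glomus cells (0.67 ± 0.22, adjusted p = 0.0392) and gave 0.53 ± 0.22 in neuroblasts (adjusted p = 0.0731). Its glomus call was lost when any 1 normoxic glomus array or hypoxic glomus replicate 1 or 3 was left out (adjusted p from 0.0585 to 0.113). The chaperones of the ATPase ring, Psmd5 and Psmd9, had differences between -0.27 and -0.05, and none of these passed.

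Other proteasome partners outside the symbol rule were counted as a list. Of 8 measured, 3 rose and 1 fell in glomus cells, and 4 rose and 0 fell in neuroblasts. Uchl5, a deubiquitinase docked on the regulatory particle, read 5.74, 6.46, 6.53 and 6.22 in normoxic and 8.06, 8.29, 8.41 and 8.18 in hypoxic glomus cells, and 5.47, 6.43, 6.53 and 6.37 in normoxic and 6.66, 7.50, 7.59 and 7.76 in hypoxic neuroblasts, and rose by 2.00 ± 0.26 (adjusted p = 6.88e-05) and 1.18 ± 0.26 (adjusted p = 0.00284). Sem1, a small lid subunit, rose by 0.54 and 0.97, and Pomp, which matures the core, by 0.75 and 0.72. On hypoxic neuroblast replicate 1 Pomp read 9.38, below all normoxic neuroblast arrays (9.45 to 9.74). The other arrays of its group read 10.25 to 10.95. Adrm1, the ubiquitin receptor that recruits Uchl5, fell by 0.63 in glomus cells (adjusted p = 0.0102) and differed by 0.14 in neuroblasts (adjusted p = 0.484).

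Regulators of proteasome genes gave 0 of 7 higher and 3 lower in each population. Nfe2l1, the factor that raises proteasome genes when capacity is short, read 8.38, 8.19, 8.44 and 8.38 in normoxic and 6.92, 6.80, 7.19 and 6.77 in hypoxic glomus cells, and 7.62, 7.97, 8.15 and 8.08 in normoxic and 6.10, 6.74, 6.82 and 6.85 in hypoxic neuroblasts. Its groups did not overlap, and it fell by 1.43 ± 0.19 in glomus cells (adjusted p = 6.28e-05) and fell by 1.33 ± 0.19 in neuroblasts (adjusted p = 4.88e-05). Keap1, the adaptor that marks Nfe2l2 for destruction, fell by 0.78 and fell by 1.28, and Mafk, a DNA-binding partner of both factors, fell by 0.60 and fell by 0.68. Nfe2l2 itself did not pass (-0.26 and -0.62).

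Among 13 measured genes of ubiquitin activation and substrate delivery, 1 rose and 6 fell in glomus cells, and 2 rose and 8 fell in neuroblasts. Uba1, the main ubiquitin-activating enzyme, fell by 1.43 ± 0.35 (adjusted p = 0.00834) in glomus cells and fell by 1.60 ± 0.35 (adjusted p = 0.00257) in neuroblasts. The shuttle genes Ubqln4, Ubqln1 and Rad23b and the Vcp cofactor Nploc4 fell in both. Vcp, the segregase that extracts ubiquitinated proteins, fell by 1.20 in neuroblasts (adjusted p = 0.00413) and gave -0.70 in glomus cells (adjusted p = 0.0957). On hypoxic neuroblast replicate 1, Vcp read 7.13 against 8.32 to 8.95 on the other arrays of its group. Uba1 read 6.53 on that array against 8.48 to 8.61, and Rad23b 6.63 against at least 7.82. Ubqln4 was not lowest there (6.34 against 5.58 to 6.43). The part of this array in the neuroblast falls of these genes was not tested. Ube2d1 rose in glomus cells (1.06 ± 0.23, adjusted p = 0.00337). As a scale for these counts, 21 of 52 ribosomal protein genes rose and 1 fell in glomus cells (median 0.46), with 24 and 2 in neuroblasts (median 0.42), and 28 of 34 complex I genes rose in each population (medians 0.83 and 1.09). The median of the constitutive core, 0.53 in glomus cells and 0.56 in neuroblasts, lay between those of both lists.

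**Figure D5:**
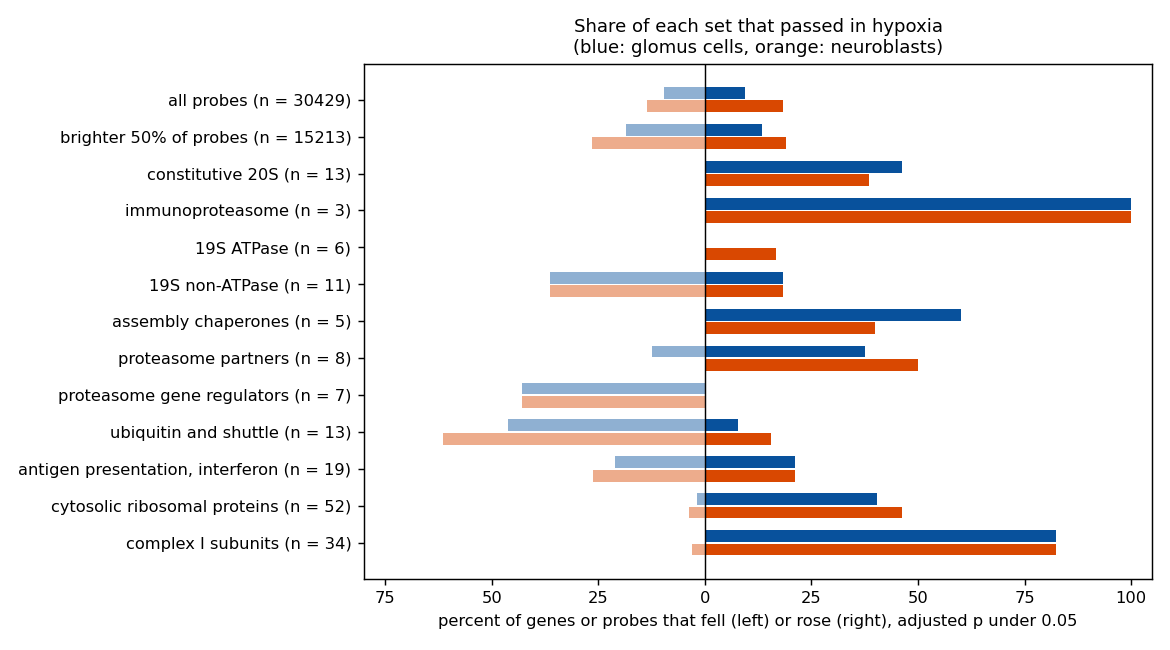
Percent of each set that rose (right) or fell (left) in hypoxia at an adjusted p under 0.05, in glomus cells (blue) and neuroblasts (orange), with the number of genes or probes in each set. All 3 immunoproteasome genes rose in both, and 3 of 7 regulators of proteasome genes fell in both.

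Between the populations, 0 of the 43 genes passed in normoxia, 0 in hypoxia and 0 in the interaction, the neuroblast response to hypoxia less the glomus response (limma, where 1.82%, 0.283% and 0.0789% of all probes passed). At an unadjusted p under 0.05 the counts were 3, 3 and 1. In normoxia these 3 were Psmb8, Psme1 and Psme4. Psmb8 was lower in all 4 neuroblast arrays (2.81 to 3.16) than in all 4 glomus arrays (4.03 to 4.37), as 4.03% of all probes were, a difference of -1.25 with a 95% interval from -2.0 to -0.50 and an adjusted p of 0.104. It passed with array weights (adjusted p = 0.0117), with the replicate block within each oxygen condition (0.0491), with only the compared arrays fitted (0.0019), and without hypoxic neuroblast replicates 1 (0.0364) or 3 (0.0325); over all alternatives the adjusted p ran from 0.0019 to 0.246. In the same comparison 7 of 15 macrophage markers were lower in neuroblasts, and their part in the Psmb8 difference was not tested. Both Psmb8 ranges lie below the medians of their arrays, and how far they lie above background is unknown.

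In hypoxia the 3 genes at an unadjusted p under 0.05 were Psmc5, Psmd1 and Psmd11, each lower in neuroblasts, with differences of -0.81, -0.60 and -0.55. For the interaction the 1 gene was Psmb11 (0.56, 95% interval 0.10 to 1.03, adjusted p = 0.678). The immunoproteasome interactions were 0.59 for Psmb8 (95% interval -0.48 to 1.66), 0.57 for Psmb9 (-0.25 to 1.39) and 0.50 for Psmb10 (-0.10 to 1.09), so that the higher neuroblast rises did not differ from the glomus rises beyond their error. Without hypoxic neuroblast replicate 1 the median of these 3 was 0.90, and 0 of the 43 passed. The intervals of the constitutive catalytic subunits were -0.50 to 0.64 for Psmb5, -1.03 to 0.53 for Psmb6 and -0.56 to 0.74 for Psmb7.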

How the data were processed

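The deposited table holds log2 values of 30429 probes of an Affymetrix rat array for 16 arrays in 4 groups of 4; the base was inferred from the values. Per the submitters' processing notes, the authors used Transcriptome Analysis Console; its version, background correction, normalization and detection calls were not given in the sources available. Of the probes 18511 name 1 gene, 575 several and 11343 none.

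For every probe, limma fitted 4 group means to all 16 arrays (lmFit and eBayes, 12 residual degrees of freedom, limma 3.58.1, R 4.3.3), with no filter and no further normalization; the script was tested on simulated data. Tests were two-sided. The 5 comparisons were hypoxia in each population, population in each oxygen condition and the interaction. The labels do not say that arrays of a group come from separate animals, so p-values measure only the spread between these samples, and the number of arrays limits the precision. The members, gene lists and the rule for named genes were chosen with earlier results of these data known. By that rule, values on all arrays were given for the catalytic subunits and for the 3 members of smallest p per class; 3 more core and lid genes and list genes were given by range or summary. Pseudogenes and copies were set apart after the annotation was seen. Replicate numbers did not pair the arrays: same-number correlations of deviations ran from -0.105 to 0.205. Alternatives were other scalings, dim-probe filters, variance models, array weights, replicate blocks, thresholds and leaving out each array; centring on the brighter 50% of probes was added after the data were seen. Plots were made in Python 3.11.15 with matplotlib 3.10.9.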

Additional observations from a re-analysis of the deposited data

Results flagged for a closer look

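In each group of 4 arrays, a value was picked out when its gap to the nearest other value took up at least the critical share of the group's range in Dixon's test at the 95% level. This picked 12 of the 172 groups of 4 values (43 genes in 4 groups, 6.98%), where chance picks about 1 in 20.

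Of these, 6 were low values of hypoxic neuroblast replicate 1: Psma5 at 7.73, Psmb1 at 7.53, Psmb6 at 8.88, Psmc3 at 8.27, Psmd12 at 6.72 and Psme4 at 6.25. The Psmb1 value lay 2.58 below the next one. Among the other low values, Psma4 was 7.63 in normoxic neuroblast replicate 1, Psma7 was 11.87 in hypoxic glomus replicate 4 and Psmc6 was 6.77 in normoxic glomus replicate 1. The immunoproteasome gene Psmb8 was low in 2 groups, at 4.03 in normoxic glomus replicate 2 and at 4.88 in hypoxic glomus replicate 1. The 1 high value was Psma6 at 11.12 in hypoxic glomus replicate 2.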

How the results depend on the processing

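Counts are of the 43 genes. In glomus cells, 20 passed in hypoxia (16 higher); the counts were 9 (5) on arrays centred on their medians, 11 (8) at an adjusted p under 0.01, 10 (7) with a 2-fold minimum, and 13 to 25 (10 to 21) when 1 array was left out. In neuroblasts, 21 passed (16 higher, 5 lower); 10 (7 and 3) passed with a 2-fold minimum, 9 rose under median centring and 25 under centring on the brighter 50% of probes, which was added after seeing the data, and 17 to 28 passed (13 to 24 higher) when 1 array was left out. In normoxia, 0 passed between the populations, and 1 (Psmb8) with array weights, with the replicate block within each oxygen condition, or with only the compared arrays fitted; leaving out 1 array gave 0 to 1. Under all other alternatives these counts stayed within 1.5 times. The replicate numbers did not pair the arrays; with the replicate block across groups, 22 passed in glomus cells and 21 in neuroblasts.

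Directions turned only for genes that did not pass. In glomus cells: Psmb11 at -0.115 (median centring) and -0.124 (quantile), Psmc3 at -0.07 (median centring), Psme4 at 0.014 (quantile) and Psmd12 at 0.107 (centring on the brighter probes), 0.166 (quantile) and -0.118 to 0.108 (1 array left out). In neuroblasts under median centring: Psmc3 at -0.16, Psmc5 at -0.113, Psmd1 at -0.117, Psmd12 at -0.24 and Psmd7 at -0.263. Under centring on the brighter probes: Psmc2 at 0.105, Psmd5 at 0.075, Psmd9 at 0.133 and Psmf1 at 0.075. Under quantile normalization: Psmc1 at 0.0359, Psmc2 at 0.13, Psmd5 at 0.109, Psmd9 at 0.0265 and Psmf1 at 0.195. With array weights: Psmb1 at 0.251, Psmc2 at 0.345, Psmd5 at 0.13 and Psmd9 at 0.0851. With 1 array left out at a time, the ranges were -0.488 to 0.418 for Psmb1, -0.382 to 0.0367 for Psmc1, -0.341 to 0.463 for Psmc2, -0.015 to 0.271 for Psmc3, -0.0533 to 0.643 for Psmc5, -0.187 to 0.363 for Psmd12, -0.262 to 0.155 for Psmd5, -0.138 to 0.132 for Psmd7, -0.233 to 0.101 for Psmd9 and -0.331 to 0.119 for Psmf1. Causes were not tested. Without detection calls, how far dim probes such as those of Psmb8 and Psmb11 lie above background is unknown here.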
